A study of Mus musculus with 4 samples.

Results

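Interferon-induced genes were examined in laser-captured crypts of the mouse intestine, in mutant mice whose beta-catenin gene had been deleted and in control mice. The genes are 38 named targets of interferon signalling and the Apol9 genes, 39 entries in all. They were chosen by name through the annotation of the array, with earlier results of these data known. Counts over them therefore describe these arrays and are not an independent test. Of the 39, 37 had a probe set that the rule could use, out of 18194 genes with a probe set on the array. Isg15 and Ifi44 were not analysed here. For a gene with several probe sets, the one that was brightest on average across the 4 arrays was read, and the 37 genes had 58 probe sets among them. The Apol9 probe set is annotated to Apol9a and Apol9b together.

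Mutant crypts (2 arrays) came from mice that had lost the beta-catenin gene for 2 days, with the deletion set off by tamoxifen, and control crypts (2 arrays) came from control mice at the same day. All samples were cut out by laser capture, and their mRNA passed through 2 rounds of amplification before labelling. The sources used here do not give the strain, the age, the driver of the deletion, whether the controls received tamoxifen, or whether each sample is a mouse of its own. Each p-value below therefore reflects the spread among these 4 samples, which may be technical, and with so few arrays every value has limited precision.

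Interferons are secreted antiviral proteins that cells make on sensing foreign nucleic acid. Type I and type III interferons signal through Jak kinases to a complex that includes Stat2 and Irf9 and binds the interferon-stimulated response element (ISRE), and type II interferon acts through the gamma-activated site (GAS). The induced genes encode RNA sensors, enzymes that stop translation or degrade RNA, GTPases that act on viruses and vacuoles, and proteins that amplify or shut down the signal. In the intestinal epithelium type III interferon is the main antiviral interferon, and microbial signals are known to keep a low level of these genes on.

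The element that names the family is shown in the promoters of some members that hold it before the start site. This element is what ties many of the genes to the interferon signal. Cxcl10, Gbp2, Ifit3 and Stat2 also hold it before the start site but are not printed. Sequences are those of RefSeq on GRCm38.p6, read on the strand of the gene up to the base before the start site, in lower case with the ISRE core in capitals. The core was spelled as GAAA, any 2 bases, then GAAA again, and searched on both strands, so that a match on the opposite strand reads as TTTC, 2 bases and TTTC. The first pair are the 250 bases before the start of Ifit1 (chr19:34640639-34640888, plus strand) and of Oas1a (chr5:120907526-120907775, minus strand).
Ifit1: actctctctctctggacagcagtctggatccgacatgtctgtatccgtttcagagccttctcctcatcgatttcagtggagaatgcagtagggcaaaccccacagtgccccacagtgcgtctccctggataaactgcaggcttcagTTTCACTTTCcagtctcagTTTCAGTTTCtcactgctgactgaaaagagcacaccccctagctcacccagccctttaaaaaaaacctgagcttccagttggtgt
Oas1a: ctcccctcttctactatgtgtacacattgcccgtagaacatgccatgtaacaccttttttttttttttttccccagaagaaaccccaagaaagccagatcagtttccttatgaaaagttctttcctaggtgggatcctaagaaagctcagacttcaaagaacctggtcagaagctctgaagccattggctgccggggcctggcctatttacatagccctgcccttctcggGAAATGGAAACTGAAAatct

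Shorter stretches show the core in 8 further genes, each with 12 flanking bases where the start site allowed. They lie at chr15:77411112-77411151 on the minus strand for Apol9a, chr15:77729023-77729062 on the plus strand for Apol9b, chr8:71537575-71537614 on the minus strand for Bst2 and chr8:61928022-61928086 on the plus strand for Ddx60. The others lie at chr3:142559987-142560026 on the plus strand for Gbp3, chr11:58199510-58199543 on the plus strand for Igtp, chr11:48871423-48871462 on the minus strand for Irgm1 and chr12:26456551-26456584 on the minus strand for Rsad2. The Apol9a and Apol9b stretches were identical letter for letter, and in both genes overlapping cores share 4 bases.
Apol9a: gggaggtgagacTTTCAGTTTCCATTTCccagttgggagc
Apol9b: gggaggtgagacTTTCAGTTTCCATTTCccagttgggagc
Bst2: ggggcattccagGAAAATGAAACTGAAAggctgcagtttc
Ddx60: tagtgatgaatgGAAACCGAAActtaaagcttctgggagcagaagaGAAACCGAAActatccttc
Gbp3: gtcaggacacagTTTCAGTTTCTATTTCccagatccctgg
Igtp: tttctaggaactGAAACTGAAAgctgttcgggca
Irgm1: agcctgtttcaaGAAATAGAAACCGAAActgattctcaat
Rsad2: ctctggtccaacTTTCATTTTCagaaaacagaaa

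Of the 37 genes, 28 had a promoter window in the RefSeq table, from 250 bases before the start site to 50 bases after it. The ISRE core was found in 17 of those 28 genes, in 20 of their 35 windows, against 3.44% of all 32851 windows of that length. The GAS core, spelled TTCNNNGAA and the same on both strands, was found in 8 of the 28 genes, in 8 of their 35 windows, against 8.3% of all windows. In Igtp the ISRE core starts 34 bases and the GAS core 45 bases before the start site. A match is a description of the letters, not a site of binding.

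**Figure D1:**
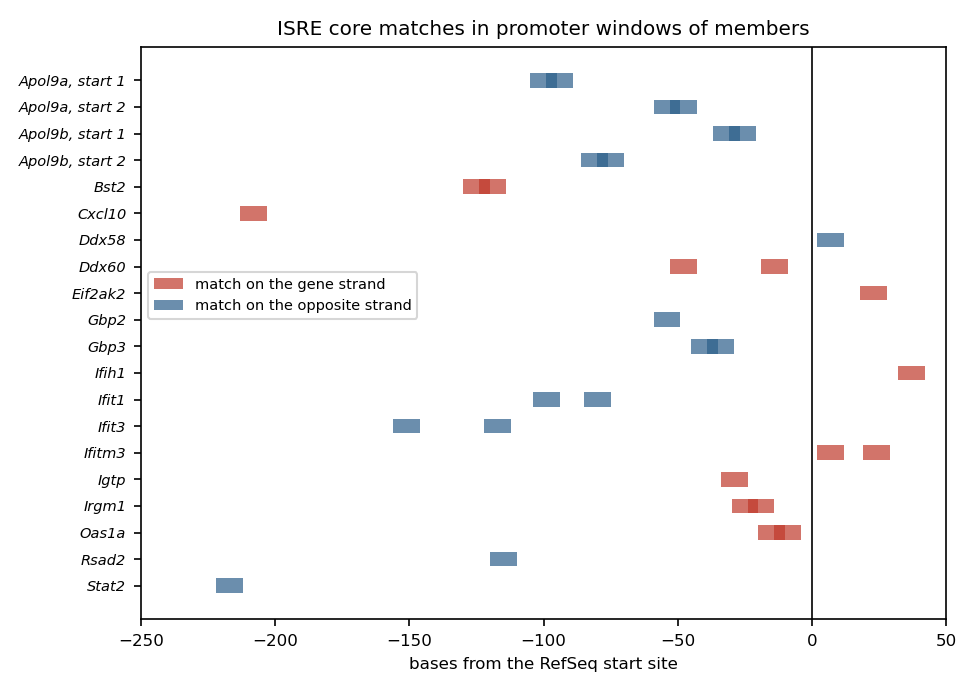
Matches of the ISRE core in the promoter windows of members that hold one, by distance in bases from the RefSeq start site (x axis); each row is a window, and Apol9a and Apol9b have 2 start sites each. Bars are 10 bases long, and darker parts are overlaps; in 16 rows every match lies before the start site, and in Ddx58, Eif2ak2, Ifih1 and Ifitm3 the matches lie after it.

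The arrays were first checked against their labels. Over 8 epithelial markers the median log2 signal was 12.35 and 12.40 in the mutant arrays, against 12.16 and 12.40 in the control arrays, so all 4 arrays carried epithelial transcripts. Ctnnb1, the deleted gene, had a log2 signal of 12.02 and 11.85 in mutants and 12.43 and 12.56 in controls, a difference of -0.56 (limma, SE 0.22, adjusted p = 0.785). That difference was -0.32 with the values as deposited, -0.20 after median centring and -0.23 when the 3 probe sets of Ctnnb1 were averaged. The deletion was thus not shown by these arrays and rests on the sources used here. The deleted exons are not named in the labels, and whether this probe set lies outside them was not tested. Across probe sets, which do not count as replicates, the correlation between arrays was 0.918 within the mutants, 0.932 within the controls and 0.912 to 0.936 across groups. Mutant replicate 1 held pancreatic acinar transcripts, with a median log2 signal of 12.70 over 10 such genes, against 4.10 in mutant replicate 2 and 4.41 and 4.62 in the controls. The 5' to 3' signal ratio of beta-actin, which drops as RNA gets shorter, was 0.0945 and 0.0448 in the mutants and 0.149 and 0.0567 in the controls.

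Interferon-induced genes were higher in the mutant crypts for most members. The mean of the mutant arrays lay above that of the control arrays for 34 of the 37 genes, against 50.8% of all 18194 genes. The median difference of the 37, mutant minus control, was 0.86 on the log2(signal + 5) scale, against 0.01 over all genes, and the single values ran from -0.34 for Ifitm3 to 3.41 for Apol9. Both mutant arrays lay above both control arrays for 24 of the 37 genes, against 18% of all genes, and both lay below for 0 of them, against 17.9%. A difference of at least 2-fold was found in 12 members, against 4.53% of all genes.

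No single member passed the test. With limma, 0 probe sets of 22519 had an adjusted p under 0.05, which is 0% of those tested, and 35 of the 37 members entered that test; Mx2 and Cxcl10 lay below the filter on dim probe sets. The lowest adjusted p of a member was 0.583. At an unadjusted p under 0.05 in the fit with no filter, 13 of the 37 members were higher and 0 lower, against 3.3% of all genes higher. With 2 arrays against 2, a two-sided exact permutation test of a single gene cannot go below p = 0.33. In samples of whole crypts, more cells of a type and more RNA per cell cannot be told apart.

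**Figure D2:**
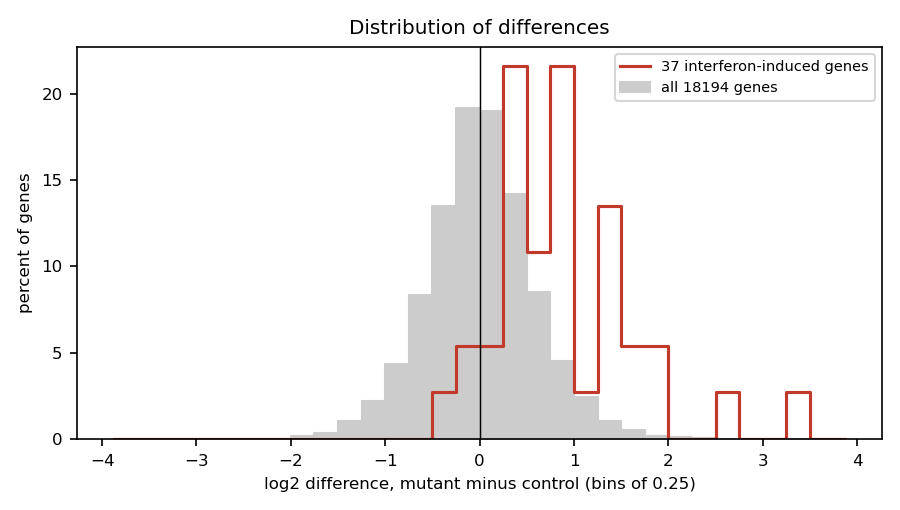
Log2 difference, mutant minus control, in bins of 0.25 (x axis) and the percent of genes in each bin (y axis), for the 37 interferon-induced genes (red line) and all 18194 genes with a probe set (grey). The median of the 37 is 0.86 and that of all genes 0.01.

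Apol9a and Apol9b, which encode interferon-inducible apolipoprotein L proteins of the mouse, gave the highest difference among the members. Their shared probe set had a log2 signal of 7.97 and 6.76 in the mutants, against 4.38 and 3.53 in the controls. The deposited signals were 310 and 81.5 in the mutants and 20.8 and 5.16 in the controls. Every mutant value thus lay well above every control value, and the mutants differed from each other by 1.21. The difference was 3.41 (limma, SE 0.53, adjusted p = 0.583), the 13th highest of all 18194 genes; 7 of the 12 genes above it are in the list of pancreatic acinar genes, which were high in mutant replicate 1.

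Among the transcription factors, 4 of 4 were higher by their means, against 50.8% of all genes. Of the 4, 2 had groups that did not overlap upward, against 18% of all genes. Irf7, the factor that amplifies the interferon response, had a log2 signal of 7.53 and 7.50 in the mutants, against 6.95 and 6.10 in the controls. Its mutant arrays were nearly equal and both above the controls, with a difference of 0.99 (SE 0.40, adjusted p = 0.785 by limma). Irf1, which is induced most by type II interferon, stood at 10.80 and 11.41 in the mutants and 10.41 and 10.61 in the controls. That difference was 0.60 (SE 0.31) with no overlap. Stat2 and Irf9, parts of the factor that binds the ISRE, differed by 0.44 (SE 0.51) and 0.13 (SE 0.45), and in both genes control replicate 1 lay above mutant replicate 1.

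The sensors of viral RNA were likewise all higher by their means, 4 of 4, with 3 not overlapping. Over all genes these shares were 50.8% and 18%. Ddx60, a helicase linked to RNA sensing, had a log2 signal of 6.74 and 7.78 in the mutants, against 6.03 and 4.79 in the controls. Its difference was 1.85 (SE 0.53, limma adjusted p = 0.768), although a second and dimmer probe set of Ddx60 stood at -0.44 (SE 0.89). Dhx58 encodes LGP2, a regulator of the other sensors, and had 5.87 and 5.97 in the mutants, against 4.89 and 4.43 in the controls. The difference for Dhx58 was 1.26 (SE 0.42), whereas its dimmer probe sets differed by -1.51 (SE 0.43) and -0.48 (SE 0.61). Ifih1, which encodes MDA5, had 9.97 and 10.19 in the mutants and 9.70 and 9.54 in the controls, a difference of 0.46 (SE 0.30). Ddx58, which encodes RIG-I, overlapped between the groups at 8.11 and 8.66 in the mutants and 8.43 and 7.64 in the controls. A dimmer probe set of Ddx58 did not overlap, at 5.64 and 6.18 in the mutants and 4.91 and 4.54 in the controls (1.19, SE 0.50), and the dimmest differed by -0.50 (SE 0.59).

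Of the 8 genes of the Oas, Ifit and PKR effectors, 7 were higher by their means, against 50.8% of all genes. The groups of 4 did not overlap upward, against 18% of all genes. Oas1a, one of the enzymes that make the oligoadenylate signal for RNA decay, had a log2 signal of 9.78 and 11.26 in the mutants, against 9.07 and 8.12 in the controls. Its deposited signals were 1145 and 2202 in the mutants and 497 and 275 in the controls. Mutant replicate 2 stood highest by a wide gap, and the difference was 1.93 (SE 0.52, adjusted p = 0.768 by limma). Ifit1, which binds viral RNA that lacks host cap methylation, had 7.14 and 7.75 in the mutants, against 5.99 and 5.87 in the controls. The controls of Ifit1 lay close together, and the difference was 1.52 (SE 0.38).

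Several genes of this group stood high in mutant replicate 2 alone. Ifit3, a partner of Ifit1, had a log2 signal of 6.79 in mutant replicate 1 and 9.70 in mutant replicate 2, against 7.07 and 6.34 in the controls. Its difference of 1.54 (SE 0.81) became 0.09 without mutant replicate 2. Oasl2 had 6.83 and 8.31 in the mutants and 6.77 and 6.47 in the controls, a difference of 0.95 (SE 0.50), which became 0.22 without mutant replicate 2. Oas2 followed the same order, at 5.37 and 6.64 in the mutants and 5.16 and 5.14 in the controls. Oasl1 ran the other way, with 8.09 in mutant replicate 1 and 6.81 in mutant replicate 2, against 6.90 and 6.22 in the controls. Ifit2 differed by 0.25 (SE 0.46), and Eif2ak2, which encodes the RNA-activated kinase PKR that stops translation, by -0.11 (SE 0.49).

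The ISG15 system attaches a ubiquitin-like protein to other proteins. All 3 of its measured genes were higher with no overlap, against 18% of all genes. Usp18, the protease that removes ISG15 and also restrains the type I receptor, had a log2 signal of 7.43 and 7.01 in the mutants, against 5.22 and 4.2 in the controls. Its deposited signals were 206 and 97.2 in the mutants and 40.8 and 11 in the controls. The difference was 2.51 (SE 0.45, limma adjusted p = 0.768), a 5.69-fold higher mean on that scale. It was the 29th highest of all genes, with 9 pancreatic acinar genes among the 28 above it. The control mean of Usp18, 4.71, lay below the filter, and its difference was 2.73 with a pseudocount of 1 and 1.43 with 50. Trim25, a ligase for ISG15 and ubiquitin that acts on RIG-I, stood at 11.89 and 12.48 in the mutants and 11.06 and 11.56 in the controls. The difference was 0.88 (SE 0.30), and the other probe sets of Trim25 gave 1.54 (SE 0.59) and 1.39 (SE 0.42). Uba7, the enzyme that activates ISG15, differed by 0.49 (SE 0.39), with its other probe sets at 0.77 (SE 0.50) and 0.58 (SE 0.46). The groups of Uba7 only just separated, at 6.86 and 6.33 in the mutants and 6.31 and 5.91 in the controls. Its deposited signals overlapped, at 135 and 59.8 in the mutants and 82.3 and 51.6 in the controls.

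The 7 GTPase genes were all higher by their means, against 50.8% of all genes, and 4 did not overlap upward, against 18%. These 4 were Igtp, Mx1, Mx2 and Gbp2. In the deposited signals Mx1, Mx2 and Gbp2 overlapped, while Gbp3, which overlapped after normalization, did not. Those of Mx1 were 59.4 and 29.9 in the mutants and 32.9 and 16.8 in the controls. Those of Gbp2 were 126 and 43.1 in the mutants and 58.3 and 49.9 in the controls. Igtp (Irgm3), an immunity-related GTPase of the vacuole, had a log2 signal of 9.10 and 9.77 in the mutants, against 8.44 and 7.69 in the controls. Both mutants lay above both controls, and the difference was 1.37 (SE 0.41, adjusted p = 0.768 by limma). Its relatives Irgm1 and Iigp1 overlapped, with differences of 0.40 (SE 0.47) and 0.41 (SE 0.39). Mx1, an antiviral dynamin-like GTPase, stood at 5.84 and 5.36 in the mutants and 4.93 and 4.65 in the controls. Mx2 was dim on all arrays, at 3.41 and 3.49 in the mutants and 3.16 and 2.91 in the controls. The guanylate-binding protein genes Gbp3 and Gbp2 differed by 0.95 (SE 0.51) and 0.51 (SE 0.42); Gbp2 was high in mutant replicate 1, at 6.77, while mutant replicate 2, at 5.88, lay next to the controls at 5.76 and 5.87.

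Membrane, chemokine and other effector genes were higher by their means in 8 of 10 cases, against 50.8% of all genes. Of the 10, 7 did not overlap upward, against 18% of all genes. Rsad2, which encodes the antiviral enzyme viperin, had a log2 signal of 7.62 and 8.39 in the mutants, against 6.97 and 6.06 in the controls. The difference was 1.49 (SE 0.45, limma adjusted p = 0.768), with the other probe sets of Rsad2 at 0.56 (SE 0.42) and -0.31 (SE 0.57). Bst2, which encodes tetherin and holds budding virus at the membrane, had 5.78 and 7.05 in the mutants and 5.09 and 5.04 in the controls. Here the controls were nearly equal, and the difference was 1.35 (SE 0.49).

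Parp9 and Parp14 encode ADP-ribosyltransferase family proteins of the interferon response, and they are near neighbours on chromosome 16 with 1 protein-coding gene between them. Parp14 had a log2 signal of 9.93 and 10.74 in the mutants, against 9.24 and 8.68 in the controls, a difference of 1.38 (SE 0.38, limma adjusted p = 0.768). Parp9 had 9.90 and 10.07 in the mutants, against 9.03 and 8.88 in the controls. Arrays of the same group lay close together in Parp9, and the difference was 1.03 (SE 0.31). Dtx3l, the ligase partner of Parp9, is an interferon-induced gene outside the member list and was picked after its values were seen. It overlapped, at 9.34 and 10.75 in the mutants and 9.52 and 8.39 in the controls.

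The remaining effectors differed less. Rtp4, a chaperone of membrane receptors, had a log2 signal of 7.85 and 8.33 in the mutants, against 7.75 and 6.60 in the controls, so mutant replicate 1 was only just above control replicate 1. Ifi35, a binding partner of Nmi, stood at 11.77 and 12.16 in the mutants and 11.56 and 11.13 in the controls, a difference of 0.62 (SE 0.27). Samd9l differed by 0.73 (SE 0.42) with no overlap, but its deposited signals overlapped, at 730 and 467 in the mutants and 470 and 229 in the controls. The chemokine gene Cxcl10, which draws T cells, was dim and overlapped, at 4.94 and 4.99 in the mutants and 4.97 and 4.22 in the controls.

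Ifitm3, Xaf1 and Eif2ak2 were the 3 members with a lower mean in the mutants. Ifitm3 encodes a membrane protein that blocks virus entry, and it had a log2 signal of 10.47 and 10.79 in the mutants, against 10.70 and 11.26 in the controls (-0.34, SE 0.31). Xaf1, a pro-apoptotic interferon target, had 6.30 and 8.81 in the mutants and 7.77 and 7.51 in the controls, so the mutants lay on either side of the controls. The second probe set of Xaf1 had 6.90 and 6.78 in the mutants and 5.72 and 5.04 in the controls, a difference of 1.45 (SE 0.43). Of the 14 members with several probe sets, 8 had all of them on the same side of 0, and Ddx58, Ddx60, Dhx58, Eif2ak2, Rsad2 and Xaf1 did not.

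**Figure D3:**
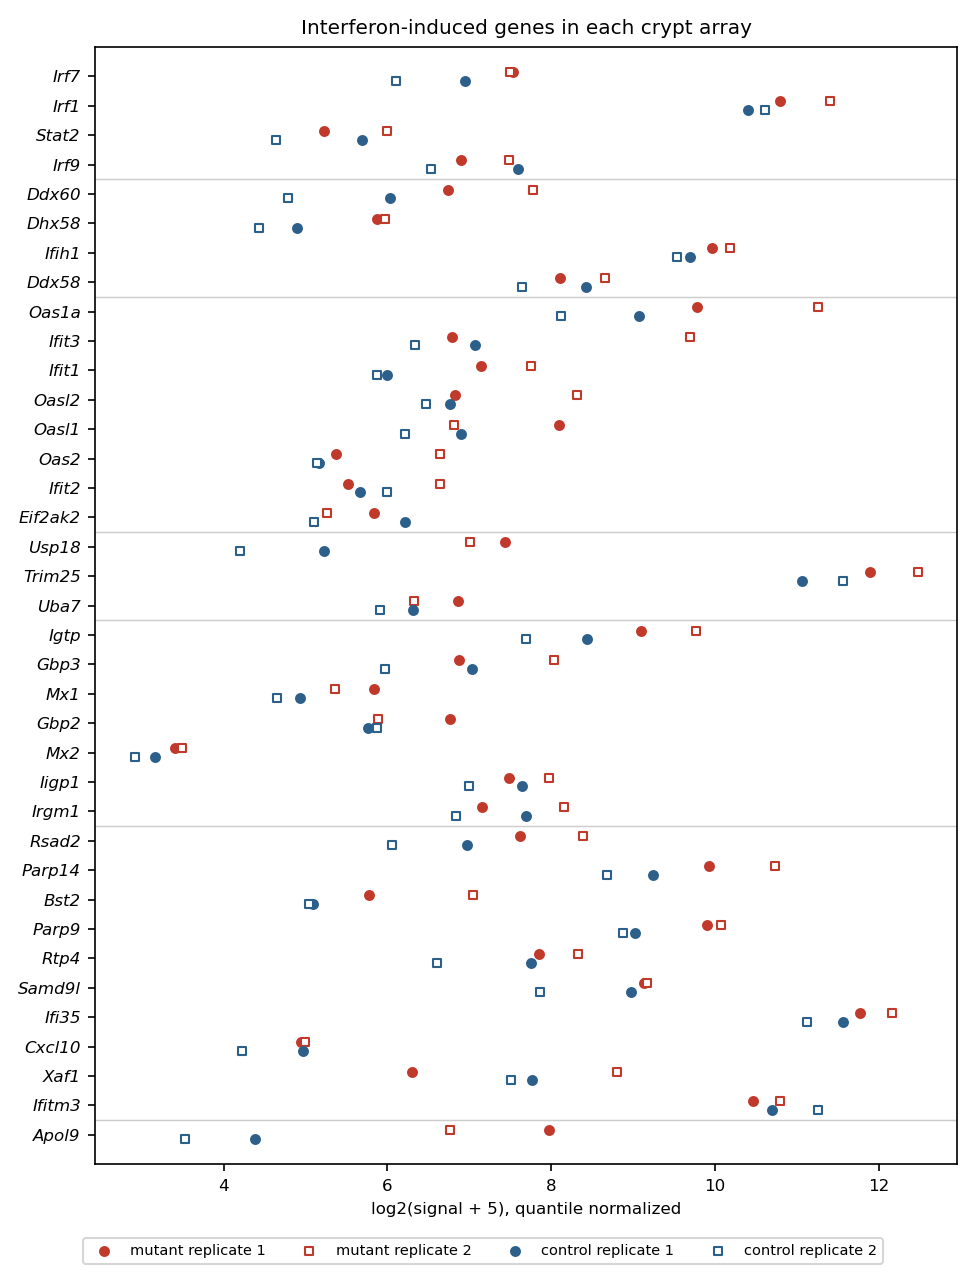
Log2(signal + 5) after quantile normalization (x axis) of the 37 members in each array, with mutant arrays in red above control arrays in blue, replicate 1 as filled circles and replicate 2 as open squares. Lines separate the roles, with Apol9 at the bottom, and 24 genes have both red points to the right of both blue points.

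Some probe sets can bind more than 1 transcript. Those of Trim25, Ifi35 and Gbp2 carry a suffix that marks probes shared with other transcripts, and the Oas, Ifit, Gbp and Apol9 families hold near-identical copies whose signals the array may not separate. Members also share positions: Ifit2 and Ifit3 are adjacent on chromosome 19 and Oasl2 and Oasl1 on chromosome 5, with 0 protein-coding genes between them.

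The arrays of a group differed from each other across the members as a whole. The median log2 signal of the 37 genes was 7.16 and 7.97 in mutant replicates 1 and 2, against 6.97 and 6.22 in control replicates 1 and 2. Mutant replicate 2 was the higher of the mutants in 29 of 37 genes, whereas the mutants split evenly over all genes, with replicate 1 higher in 50.1%. Control replicate 1 was the higher of the controls in 32 of 37 genes, 86.5%, against 46.1% of all genes. Mutant replicate 1 lay above both controls in 25 members, 67.6%, and mutant replicate 2 in 33 members, 89.2%, against 34% of all genes for each.

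The size of the difference depended on the arrays kept. With mutant replicate 1 left out, which held the pancreatic acinar signal, the median difference of the members was 0.95 and 35 of 37 were higher. Without mutant replicate 2 it was 0.57 with 32 higher, without control replicate 1 it was 0.99 with 35 higher, and without control replicate 2 it was 0.55 with 30 higher. The sign was positive with each array left out in turn for 28 of the 37 genes. Apol9 ranged from 2.73 to 4.08, Usp18 from 1.94 to 3.10 and Ifit1 from 1.23 to 1.78 over those fits. The values of Irgm1 ran from -0.10 to 0.88, those of Irf9 from -0.39 to 0.68, and those of Xaf1 from -1.35 to 1.15.

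**Figure D4:**
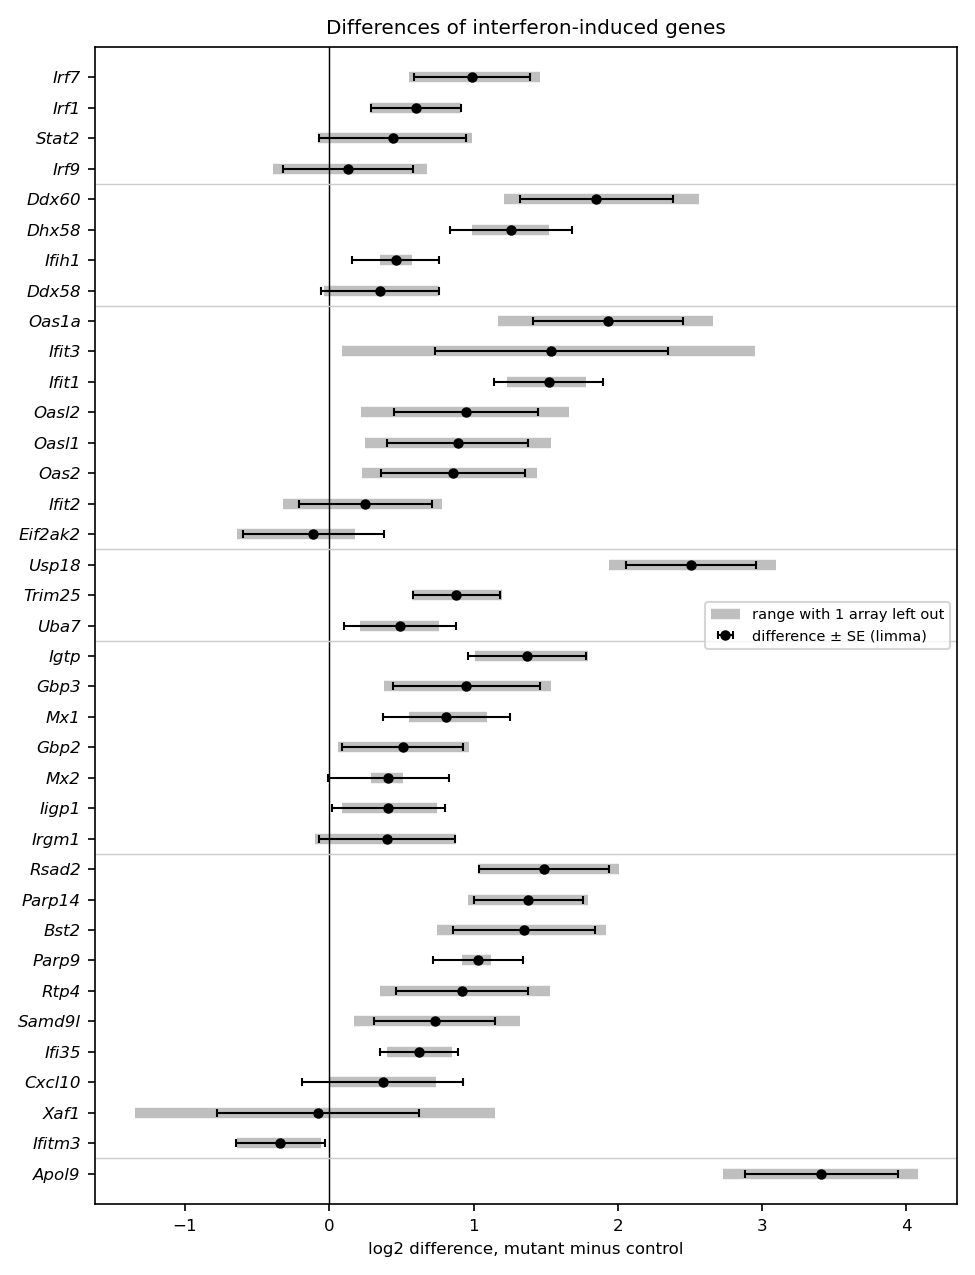
Log2 difference, mutant minus control (x axis), of each member as a point with its SE from limma, and in grey the range of the difference when each of the 4 arrays is left out in turn. The grey bars of Apol9, Usp18, Ddx60, Ifit1, Oas1a, Igtp and Rsad2 stay above 1, and that of Ifit3 runs from 0.09 to 2.95.

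Markers of leukocytes were read beside these values. The summed signal of 11 T and NK cell genes was 3130 and 728 in the mutants, against 2010 and 637 in the controls, so replicate 1 was higher in both groups. Over 6 general leukocyte genes the sum was 2030 and 1690 in the mutants and 1660 and 1470 in the controls. For 9 macrophage and dendritic cell genes it was 1340 and 1970 in the mutants and 1390 and 1240 in the controls. By their means, 2 of these 9 were higher and 7 lower, with a median of -0.04. For 5 B and plasma cell genes the sum was 7220 and 7390 in the mutants and 9350 and 7060 in the controls. By their means, 2 of these 5 were higher and 3 lower, with a median of -0.02. Of the 11 T and NK cell genes, 8 were higher and 3 lower, with a median of 0.17. The 6 general leukocyte genes had 4 higher and 2 lower, with a median of 0.25. Over all genes, 50.8% were higher. A sum leans on its brightest gene, which was Gzma for T and NK cells, Csf1r for macrophages and Jchain for B cells. Over all 31 leukocyte genes, 16 were higher and 15 lower, with a median of 0.02. Of these 31 genes, 24 entered the test and none of them passed it. Both mutants lay above both controls in 4 of the 31, against 18% of all genes, and below both in 1, against 17.9%. For the interferon-induced genes, the part of these cells in the differences was not tested.

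The upstream parts of the pathway had smaller median differences than the members. Of 10 interferon genes with a probe set, 9 lay below the filter, with 3 higher and 7 lower by their means. Ifng, the type II interferon, had a log2 signal of 4.36 and 4.37 in the mutants, against 3.53 and 2.82 in the controls, below the filter on dim probe sets. Ifna2 differed by 1.22 (SE 0.48) and Ifna1 by -1.0 (SE 0.41), both below the filter too. Among 9 receptor and Jak kinase genes, 7 were higher and 2 lower by their means, with a median of 0.28. The type III receptor chains Il10rb and Ifnlr1 were the 2 whose groups did not overlap. That is 22.2% of the 9, close to the 18% of all genes. Il10rb had 9.59 and 9.08 in the mutants and 8.92 and 8.48 in the controls. Ifnlr1 had 6.97 and 6.27 in the mutants and 6.16 and 5.66 in the controls. The deposited signals overlapped in both genes. Those of Il10rb were 1004 and 442 in the mutants and 452 and 354 in the controls. Those of Ifnlr1 were 147 and 57.2 in the mutants and 74.9 and 42 in the controls.

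Among 14 genes of nucleic acid sensing and induction, 10 were higher and 4 lower by their means, with a median of 0.32 and 5 that did not overlap upward, 35.7% against 18% of all genes. Zbp1, a sensor of Z-form nucleic acid, had a log2 signal of 6.28 and 6.30 in the mutants, against 5.51 and 4.33 in the controls. Tlr3, the receptor for double-stranded RNA, stood at 8.39 and 8.67 in the mutants and 7.62 and 7.88 in the controls. Cgas, the sensor of cytosolic DNA, was below both controls in both mutants, at 7.01 and 7.76 in the mutants and 8.0 and 8.12 in the controls. Of 5 feedback inhibitors, Socs3, which restrains Stat3 signalling most, had 9.05 and 8.83 in the mutants and 6.52 and 7.93 in the controls, a difference of 1.71 (SE 0.48). Socs1, which restrains interferon signalling directly, was dim and differed by -0.15 (SE 0.53).

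A wider list of 65 other genes known to be induced by interferon was also drawn up with earlier results known. It was read in the same way, and 55 of its genes had a probe set. Of these, 49 were higher and 6 lower by their means, with a median of 0.56, and 27 did not overlap upward, against 18% of all genes. None passed the test (limma), and 10 of the 48 tested had an unadjusted p under 0.05, of which 9 were higher and 1 was lower, against 3.33% of all genes tested that were higher at that p and 3.62% that were lower. Slfn2, a member of the Schlafen family, had a log2 signal of 7.71 and 8.90 in the mutants, against 6.66 and 6.45 in the controls. Rnf213, a large ubiquitin ligase, differed by 1.5 (SE 0.43), and Irgm2, a relative of Igtp, by 1.48 (SE 0.43). Tap1, the peptide transporter of antigen presentation, had 8.47 and 8.96 in the mutants, against 7.74 and 7.48 in the controls, a difference of 1.11 (SE 0.36). Ifitm2 was among the 6 that were lower in the mutants, with 8.97 and 8.73 in the mutants, against 10.08 and 10.64 in the controls, a difference of -1.51 (SE 0.34).

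**Figure D5:**
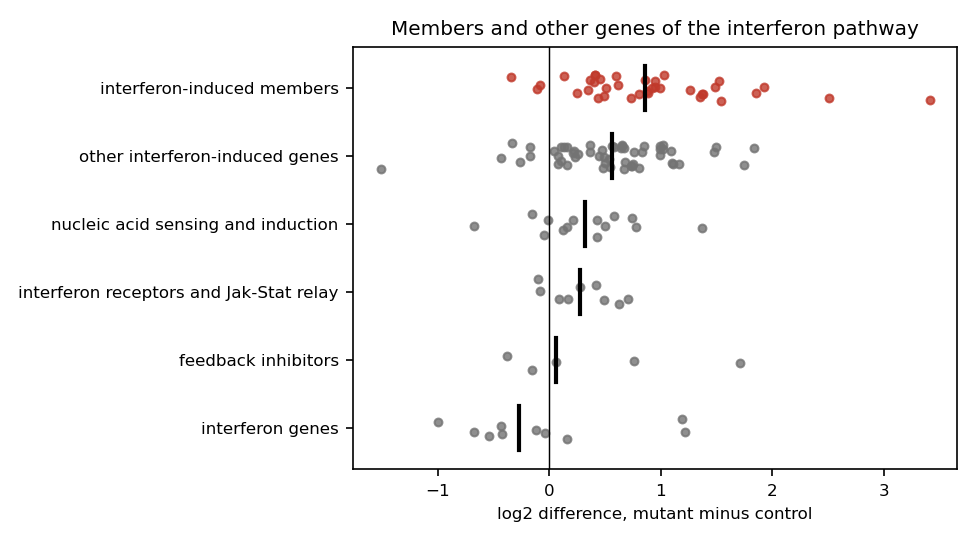
Log2 difference, mutant minus control (x axis), of each gene in 6 lists of the interferon pathway (rows), with the median of each list as a black bar; points are spread vertically for legibility. The medians are 0.86 for the members, 0.56 for other induced genes, 0.32 for sensing genes, 0.28 for receptors and kinases, 0.06 for feedback inhibitors and -0.27 for interferon genes.

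The promoter letters shown above were set against the differences. The 17 members with an ISRE core had a median difference of 0.95, and 9 of them, 52.9%, did not overlap upward. The 11 members with a window but no core had a median of 0.62, and 7 of them, 63.6%, did not overlap upward. With a core the median was thus higher and that share lower. The 9 members with no window in the table, Usp18 among them, had a median of 0.92, and 8 of them, 88.9%, did not overlap upward. Over all genes that share was 18%. Outside the members, 508 genes on the array held an ISRE core in a window. Their median difference was 0.01, and 17.9% of them had both mutants above both controls, against 18.1% of 13917 genes without a core. Both shares were close to the 18% of all genes, and the letters of this window say nothing of elements elsewhere.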

How the data were processed

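One single-colour array was read for each of 2 mutant and 2 control crypt samples. Its deposited values are linear intensities, 1 for each probe set, which the submitters' processing notes ascribe to MAS5; no scaling target or version was found in the labels. Of 45101 probe sets, 64 controls were left out; 34945 of the rest had 1 gene symbol, 932 several (used for Apol9 alone) and 9160 none.

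Intensities were taken as log2(intensity + 5), 5 being their rounded 20th percentile, which understates changes of dim genes, and quantile normalized because 2% trimmed means differed by 1.53-fold. Probe sets at or above the median of mean log2 signal (4.79) were tested, 22519 in all, with limma 3.58.1 in R 4.3.3 (intensity trend, two-sided, Benjamini-Hochberg, threshold 0.05; 2 residual and 6.4 prior degrees of freedom). Counts and medians over lists use no filter, and the SE of a dim gene or extra probe set comes from the fit with no filter. Per-array values were set for the 16 members with the smallest p in that fit, and others were added to complete each role; in other lists, up to 6 genes by p could be named. Members and lists were chosen with earlier results of these data known. The code was tested on simulated data. Alternatives varied scaling, pseudocount, filter, variance model, replicate block, probe set choice and arrays.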

Additional observations from a re-analysis of the deposited data

How the results depend on the processing

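Over all 37 members, 32 were higher without mutant replicate 2 and 30 without control replicate 2. Over the 14 alternatives, the 16 members with the smallest p gave 224 differences, of which 223 were positive. The 16 were picked by p in the same arrays and were all higher in the reported fit, so a positive sign was largely set beforehand. Changes of the filter, variance model or replicate block left each difference as it was. Dhx58 turned to -0.24 when its probe sets were averaged, where it lay below the filter. Of the 219 values that were tested, 215 stayed on the same side of the threshold. The count of probe sets past the adjusted p was 0 in the reported fit, 2 with the values as deposited, 102 with median centring and 1 with a replicate block. Leaving out each array in turn gave between 0 and 90 (20 without mutant replicate 1 and 90 without mutant replicate 2). The count of members past the test was 3 with median centring (Apol9, Usp18 and Ddx60), where limma's prior degrees of freedom were infinite, and otherwise 0, with a range of 0 to 1 over arrays left out: Apol9 passed without mutant replicate 2. The adjusted p over the alternatives ran from 7.12e-09 to 0.88 for Apol9, from 0.000216 to 0.88 for Usp18 and from 0.0387 to 1 for Ddx60. Median centring moved the median of all genes to 0.11, and the members' median to 0.98. That median was 0.61 with a pseudocount of 50 and 0.71 when the probe sets of a gene were averaged; the members whose groups did not overlap upward numbered 20 with deposited values, against 14.2% of all genes, and 29 after median centring, against 18.2%. The cause of these changes was not tested. The replicate numbers do not pair the samples by the labels, and the deviations of same-numbered arrays correlated at 0.0339 across probe sets; the block left the members past the test at 0. Dim probe sets such as Mx2, Cxcl10 and the interferon genes lie near the background of the array, where the sign of a difference is least certain. The control means of Apol9, Usp18 and Dhx58 lay below the filter, and the sizes of their differences fell with a larger pseudocount.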

Other observations

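The Ifitm genes, which encode membrane proteins that block virus entry and lie in the same family as Ifitm3, were read side by side. They were picked together after their values were seen. Ifitm1 had a log2 signal of 7.63 and 8.60 in the mutants, against 8.33 and 8.41 in the controls, a difference of -0.26 (SE 0.41). Ifitm2 differed by -1.51 (SE 0.34) and Ifitm3 by -0.34 (SE 0.31), so all 3 were lower by their means, and in Ifitm2 alone the groups did not overlap.

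Among 10 stromal and endothelial markers, 6 were higher and 4 lower by their means, and 3 had both mutant arrays above both control arrays, 30% against 18% of all genes. Pdgfra, a marker of fibroblasts beneath the epithelium that was picked after its values were seen, had a log2 signal of 8.03 and 9.49 in the mutants, against 6.53 and 7.93 in the controls. Summed over the 10 genes, the signal was 3800 and 5010 in the mutants and 3030 and 5240 in the controls.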
